A study of Mus musculus with 7 samples.

Results

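The genes described here carry, make, hold, sense and clear retinoic acid, the active acid form of vitamin A, in mouse embryonic fibroblasts (MEFs) given cardiac transcription factors. They are 9 genes, each with 1 probe set, among 19505 named genes on the array. They were chosen by gene symbol in the platform annotation, with earlier results of these arrays already known, so their levels and differences are descriptions and were not tested. The array, Clariom S for mouse, reports a log2 signal for each gene, and every difference below is a log2 difference between the arrays named. Fibroblasts without treatment gave the MEF array. The GT arrays came from fibroblasts infected with retroviruses for Gata4 and Tbx5 and 1 form of Mef2c: isoform 1 in GT/M1, isoform 2 in GT/M2, isoform 6 in GT/M6, and isoform 2 fused with the MyoD transactivation domain in GT/M2TAD. The siCtrl and siEp300 arrays came from transduced fibroblasts that also had control siRNA or siRNA for Ep300, which encodes the acetyltransferase p300. The labels of this siRNA pair disagree, with GT/M2 in the titles and GT/M2TAD in the other fields, so the Mef2c form on them is not settled here. Transduced cells were collected after 1 week. No time of collection was given for the MEF array, and no group had virus without the factors, so factor, infection and culture time cannot be told apart in a difference from MEF.

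Cells take up retinol from its carrier in blood, in some tissues through the receptor STRA6. Dehydrogenases oxidise retinol to retinal, reductases such as DHRS3 turn retinal back to retinol, and the aldehyde dehydrogenases of the ALDH1A family oxidise retinal to retinoic acid. Inside the cell CRABP1 and CRABP2 bind retinoic acid, the nuclear receptors RAR and RXR respond to it by binding DNA, and CYP26 enzymes break it down. In the embryo, retinoic acid made by ALDH1A2 patterns the heart tube along its axis and is later made in the epicardium.

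Each group had 1 array, so no difference has a replicate check, no p-value can be given, and the number of arrays limits the precision. Median signals over named genes were 5.38 to 5.71 on the 7 arrays. Negative-control probes had a 95th percentile of 8.43 to 9.33, and a signal below it is called near background here. A gene counted as at least 2-fold apart when its log2 difference reached 1 and its higher signal reached the median of named genes on that array. All 9 genes except Cyp26b1 reached that median on at least 1 array. Among negative-control probes that reached the same level, 26.8% to 54.2% were 2-fold apart in the 12 comparisons, and the 95th percentile of their absolute difference was 2.92 to 3.28 in the 6 comparisons with MEF. As a check of the labels, Tbx5 was 5.72 on MEF and 14.82 to 16.23 on the other 6, and Mef2c was 8.24 and 18.32 to 18.87. Gata4, the other delivered factor, was 3.57 to 5.09 on all 7 arrays and 4.22 on MEF, so these data do not bear out the Gata4 part of the GT label, and the reason was not tested. Ep300 was 9.47 on siEp300 and 9.90 on siCtrl, under 2-fold apart, so these data do not show a strong loss of Ep300 RNA. Fibroblast markers (8 measured) had a median of 14.35 on MEF and of 11.16 to 12.48 on the 4 arrays that had no siRNA, and on the siRNA pair it was 15.26 and 15.17. Cardiac muscle markers (8 measured) had a median of 4.98 on MEF and 9.56 to 13.27 on the other arrays. Endothelial, macrophage, adipocyte and keratinocyte lists had medians of 3.16 to 4.83 on every array.

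Promoter sequence is shown for 3 of the genes: Crabp1 and Dhrs3, which stood furthest from MEF in opposite directions, and Rarb, a known direct target of retinoic acid. RefSeq windows of the GRCm38.p6 build, from 250 bases before to 50 bases after an annotated start, were held for 7 of the 9 genes, in 13 windows. Each line gives the 250 bases before the start, in the direction of transcription, and capitals mark a pair of direct-repeat hexamers. Dhrs3 had 3 windows, of which that of the most upstream start is printed.
Crabp1, chr9:54764498-54764747, plus strand: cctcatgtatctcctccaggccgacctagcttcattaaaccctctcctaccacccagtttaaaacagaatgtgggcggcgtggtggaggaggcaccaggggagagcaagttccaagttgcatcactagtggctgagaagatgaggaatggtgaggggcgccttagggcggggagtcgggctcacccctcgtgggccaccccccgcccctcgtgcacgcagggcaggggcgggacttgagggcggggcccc
Dhrs3, chr4:144892577-144892826, plus strand: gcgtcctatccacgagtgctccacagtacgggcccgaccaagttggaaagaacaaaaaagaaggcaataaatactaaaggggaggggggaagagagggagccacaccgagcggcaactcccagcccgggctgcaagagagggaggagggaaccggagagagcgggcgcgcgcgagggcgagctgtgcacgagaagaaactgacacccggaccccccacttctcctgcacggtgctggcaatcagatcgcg
Rarb, chr14:16575477-16575726, minus strand: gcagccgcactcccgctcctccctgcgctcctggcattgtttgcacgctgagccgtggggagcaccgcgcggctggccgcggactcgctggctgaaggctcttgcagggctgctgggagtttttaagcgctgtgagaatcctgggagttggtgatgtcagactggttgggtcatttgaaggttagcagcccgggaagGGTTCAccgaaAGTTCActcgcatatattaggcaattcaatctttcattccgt

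The search was for a hexamer AGGTCA or AGTTCA or GGGTCA or GGTTCA followed on the same strand by another of these after 1, 2 or 5 bases, on both strands of the 300 base windows. The Rarb window held the only match among the 13 windows, with 5 bases between the hexamers, from 53 to 37 bases before the start. Of 32851 windows in the table, 0.588% held such a repeat and 0.0974% held one with 5 bases between. The Crabp1 and Dhrs3 windows held none of these letters in that arrangement, which says nothing of sites elsewhere. Which start was used in these cells is not measured by the array.

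Stra6, the receptor for retinol binding protein (Entrez 20897), had signals of 5.61 on MEF, 7.97 with GT/M1, 7.29 with GT/M2, 8.02 with GT/M6, 6.46 with GT/M2TAD, 6.02 on siCtrl and 6.28 on siEp300. The 3 arrays of plain Mef2c isoforms, without the MyoD domain, were the highest, and MEF was the lowest of all 7. The differences from MEF were 2.36, 1.68 and 2.41 on those 3 arrays, 0.85 with GT/M2TAD, and 0.41 and 0.67 on siCtrl and siEp300. Stra6 was near background on every array.

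Dhrs3, the short-chain reductase that returns retinal to retinol (Entrez 20148), had signals of 6.52 on MEF, 11.87 with GT/M1, 11.78 with GT/M2, 11.06 with GT/M6, 9.26 with GT/M2TAD, 10.66 on siCtrl and 10.99 on siEp300. MEF stood below every transduced array, and GT/M2TAD was the lowest of the transduced arrays. Against MEF, Dhrs3 was 5.35 higher with GT/M1, 5.26 with GT/M2, 4.55 with GT/M6, 2.74 with GT/M2TAD, 4.14 on siCtrl and 4.48 on siEp300. Only the MEF signal was near background, so the size of these differences rests in part on it. In 5 of the 6 comparisons, all but that of GT/M2TAD, the difference was beyond the 95th percentile of the negative-control differences. By rank, Dhrs3 lay at percentile 58.6 of named genes on MEF, 75.0 with GT/M2TAD and 85.5 to 90.8 on the other 5 arrays.

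The ALDH1A enzymes that make retinoic acid went different ways. Aldh1a1 (Entrez 11668), at 5.95 on MEF, was 8.78 with GT/M1, 8.74 with GT/M2, 8.72 with GT/M6, 7.56 with GT/M2TAD, 7.98 on siCtrl and 8.62 on siEp300. All transduced arrays were above MEF, by 1.61 with GT/M2TAD to 2.83 with GT/M1. GT/M1 was nearly matched by GT/M2 and GT/M6, at -0.038 and -0.054 against it. Its only signal above the negative-control percentile was that on siEp300.

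Aldh1a2, the main enzyme of retinoic acid synthesis in the early embryo (Entrez 19378), had signals of 6.91 on MEF, 8.10 with GT/M1, 9.60 with GT/M2, 8.57 with GT/M6, 7.62 with GT/M2TAD, 7.80 on siCtrl and 7.81 on siEp300. GT/M2 stood highest and was the only array on which it was not near background. It was 2.69 higher than MEF on GT/M2, 1.67 with GT/M6 and 1.19 with GT/M1, and 0.72, 0.90 and 0.90 with GT/M2TAD, siCtrl and siEp300. The GT/M1 difference was under 2-fold with quantile normalization at 0.95, median centring at 0.89 and level-dependent centring at 0.95.

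Aldh1a2 is also known from mesothelium and epicardium, so markers of those cells are given beside it. Of 10 such markers, 0 were above the negative-control percentile on MEF and 1 to 3 on the other arrays, and the list's median was 4.51 on MEF and 5.86 to 6.49 elsewhere. Krt19 was highest on GT/M2, as Aldh1a2 was, at 12.70 against 6.58 on MEF, 10.22 with GT/M1 and 9.05 with GT/M6. Other markers of the list were lowest on GT/M2 among the plain isoforms: Upk1b was 9.87, 8.97 and 10.49, Tbx18 9.98, 8.61 and 10.21, and Msln 6.91, 6.40 and 8.53 for isoforms 1, 2 and 6. Wt1, a defining factor of epicardium, was 2.65 to 4.04 on all arrays, and Upk3b was 4.62 to 5.69. The part of such cells in the Aldh1a2 signal was not tested.

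Aldh1a3 (Entrez 56847) went the other way. Its signal was 8.51 on MEF, 4.98 with GT/M1, 4.97 with GT/M2, 4.98 with GT/M6, 4.35 with GT/M2TAD, 4.37 on siCtrl and 4.63 on siEp300. MEF stood alone, and the 6 transduced arrays lay between 4.35 and 4.98. The differences from MEF ran from -3.53 with GT/M6 to -4.16 with GT/M2TAD. All 6 were beyond the 95th percentile of the negative-control differences, although Aldh1a3 was near background on every array, MEF included.

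Crabp1, the cytosolic binding protein of retinoic acid (Entrez 12903), had the widest range of the 9 genes, 8.65 log2 units. Its signal was 12.32 on MEF, 4.42 with GT/M1, 3.67 with GT/M2, 5.51 with GT/M6, 3.91 with GT/M2TAD, 6.59 on siCtrl and 6.53 on siEp300. MEF was the only array with a signal above the negative-control percentile, at percentile 92.8 of named genes, and the next array, siCtrl, was 5.73 lower. The 4 arrays that had no siRNA were all below the siRNA pair. The differences from MEF were -7.90 with GT/M1, -8.65 with GT/M2, -6.81 with GT/M6, -8.41 with GT/M2TAD, -5.73 on siCtrl and -5.80 on siEp300, and with 1 of its signals near background each size rests in part on the background level. Each was beyond the 95th percentile of the negative-control differences. Fewer cells with Crabp1 and less Crabp1 RNA in each cell cannot be told apart in such bulk RNA, here or in the other genes. Of 6 measured neural and neural crest markers, 3 were above the negative-control percentile on MEF and 1 or 2 on the other arrays, and the part of such cells in the Crabp1 signal was not tested.

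Crabp2 (Entrez 12904), which carries retinoic acid to its nuclear receptors, did not follow Crabp1. Its signal was 7.04 on MEF, 5.60 with GT/M1, 5.18 with GT/M2, 5.97 with GT/M6, 5.61 with GT/M2TAD, 8.09 on siCtrl and 8.52 on siEp300. MEF lay between the arrays without siRNA, all lower, and the siRNA pair, both higher. Against MEF, Crabp2 was at -1.43, -1.85, -1.07 and -1.42 on the arrays without siRNA, in the order just given, and 1.05 and 1.49 higher on siCtrl and siEp300. The siCtrl difference was 0.98 after median centring, under 2-fold. All signals except that on siEp300 were near background. None of the 6 differences of Crabp2 from MEF was beyond the 95th percentile of the negative-control differences. The same held for Stra6, Aldh1a1 and Aldh1a2.

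Rarb, a retinoic acid receptor that is itself a known target of retinoic acid and whose window is printed above (Entrez 218772), differed little. Its signal was 6.02 on MEF, 6.53 with GT/M1, 6.86 with GT/M2, 6.22 with GT/M6, 5.93 with GT/M2TAD, 6.00 on siCtrl and 6.15 on siEp300, a range of 0.93. Cyp26b1, an enzyme that breaks down retinoic acid (Entrez 232174), had 5.19 on MEF, 5.05 with GT/M1, 4.58 with GT/M2, 4.91 with GT/M6, 5.09 with GT/M2TAD, 5.38 on siCtrl and 5.53 on siEp300. Its range was 0.95, and it was below the median of named genes on all 7 arrays. Both genes were near background throughout, so these signals do not show whether their RNA differed.

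**Figure D1:**
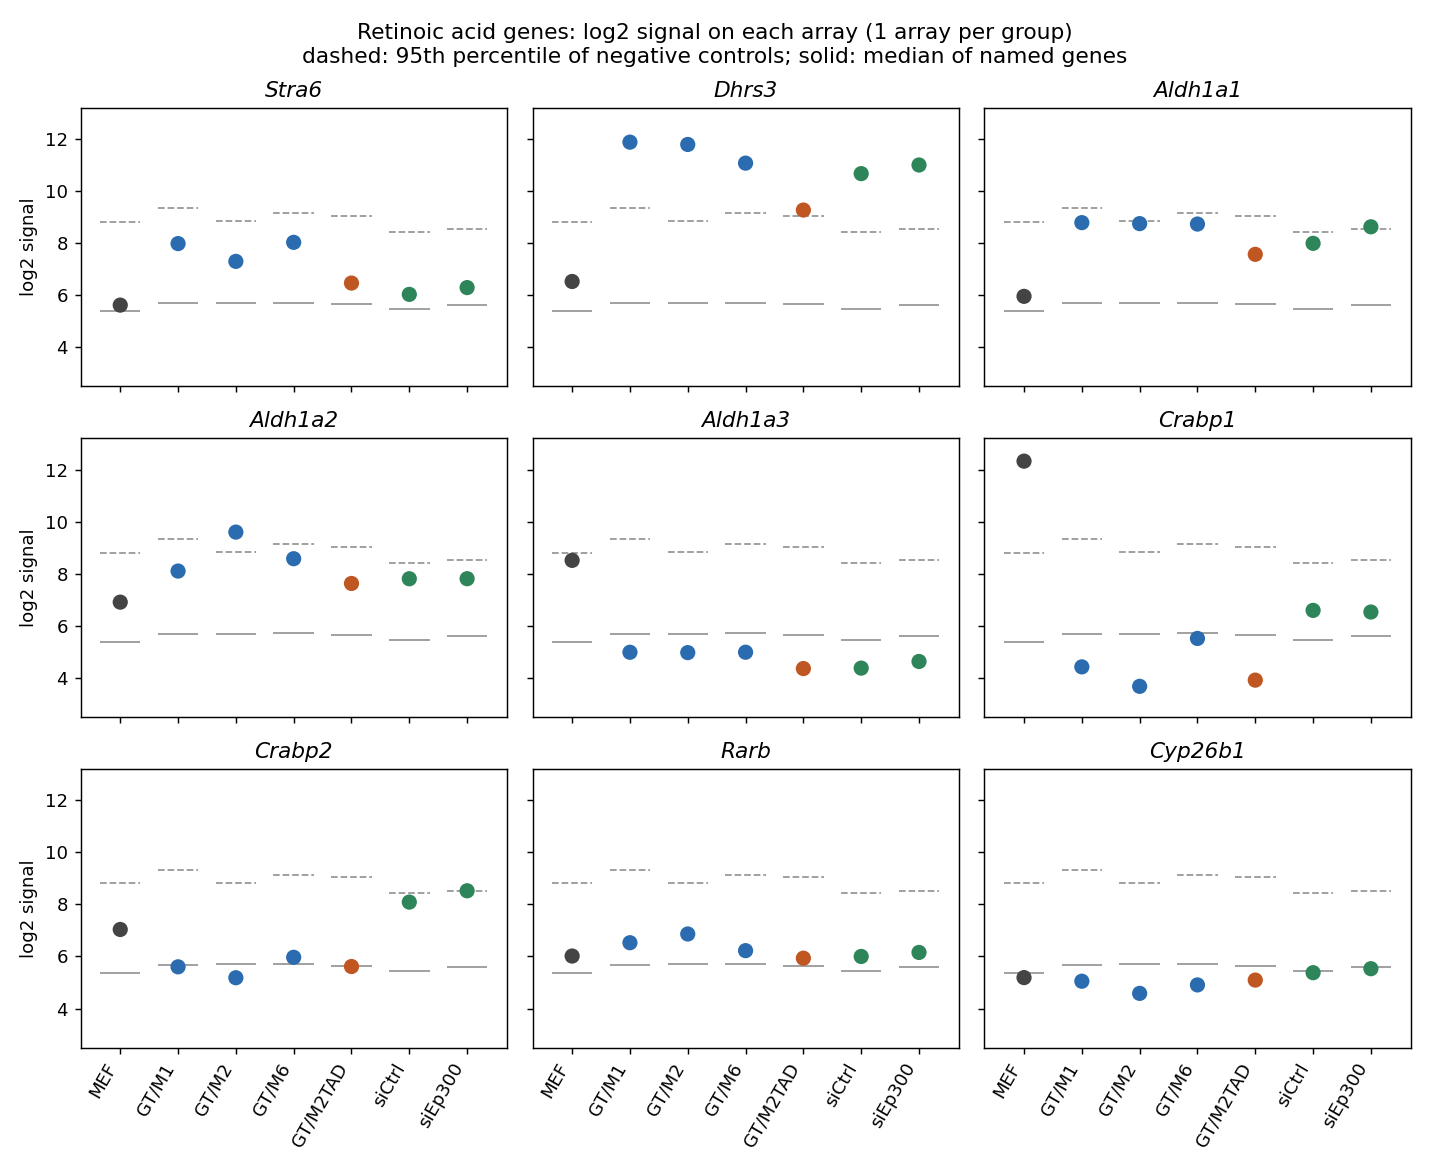
Log2 signal (y axis) of each of the 9 retinoic acid genes on each of the 7 arrays (x axis), 1 point per array (MEF grey, plain isoforms blue, GT/M2TAD orange, siRNA pair green), with the array's 95th percentile of negative-control probes (dashed) and median of named genes (solid). Crabp1 is above the dashed line on MEF alone, at 12.32, and Dhrs3 is above it on the 6 transduced arrays, at 9.26 to 11.87, and below it on MEF.

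Counted together against MEF, Stra6, Dhrs3, Aldh1a1 and Aldh1a2 passed 2-fold higher with each of Mef2c isoforms 1, 2 and 6. The share of all named genes at least 2-fold higher was 12.5%, 13.6% and 13% on those arrays, in that order. Crabp1, Crabp2 and Aldh1a3 were at least 2-fold lower on all 3, where 9.52%, 8.34% and 8.79% of named genes were. On GT/M2TAD, 2 genes were higher (Dhrs3 and Aldh1a1), against 14% of named genes, and the same 3 were lower, against 9.5%. On siCtrl and siEp300, 3 genes were higher (Dhrs3, Aldh1a1 and Crabp2), against 10.9% and 13.4% of named genes, and 2 were lower (Crabp1 and Aldh1a3), against 10.9% and 9.29%. Since the genes were chosen with these differences known, their counts are not read against those shares. The median difference of the 9 genes from MEF was 0.51 for GT/M1, 0.85 for GT/M2, 0.21 for GT/M6, -0.083 for GT/M2TAD, 0.41 for siCtrl and 0.67 for siEp300, where that of all named genes lay between 0.012 and 0.12.

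The 6 comparisons share the MEF array and are not independent of each other. MEF stood at least 2-fold above all 6 transduced arrays for Crabp1 and Aldh1a3, as for 4.74% of named genes. It stood at least 2-fold below all 6 for Dhrs3 and Aldh1a1, as for 6.28%. With the siRNA pair left out, Crabp2 joined the first group, but the share of named genes under that looser rule was not computed. Median centring moved the median difference of all genes from 0.089 to -0.22 for GT/M1, from 0.072 to -0.25 for GT/M2, from 0.077 to -0.25 for GT/M6 and from 0.091 to -0.17 with GT/M2TAD. It turned the shares of named genes higher and lower into 9.31% and 12.9% with GT/M1, 10.0% and 11.4% with GT/M2, 9.50% and 12.5% with GT/M6, and 11.1% and 12.2% on GT/M2TAD. On siEp300 they became 10.8% and 11.8%.

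**Figure D2:**
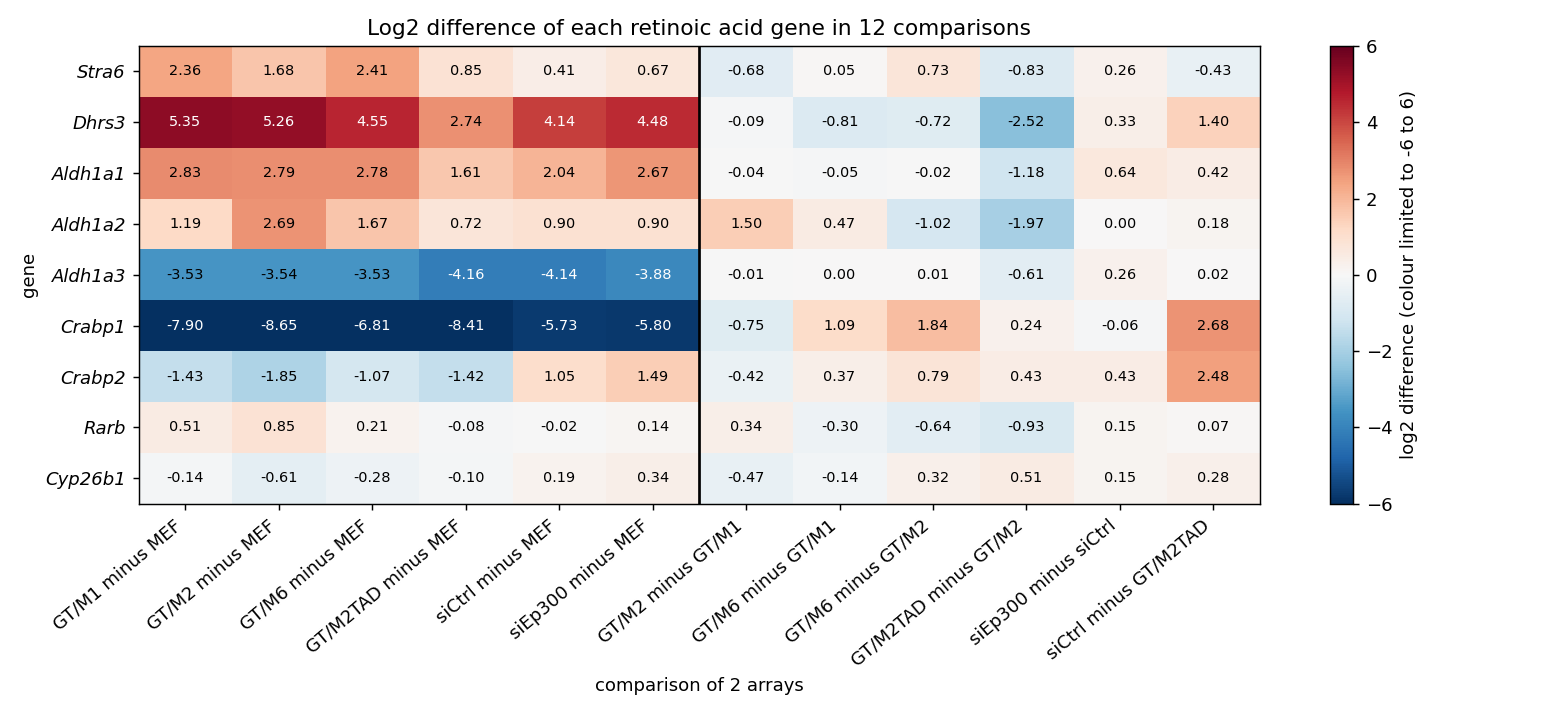
Log2 difference of each of the 9 genes (rows) in each of 12 comparisons of 2 arrays (columns), printed in each cell and coloured from blue (lower on the first array) to red (higher). Left of the line, all comparisons share the MEF array; Crabp1 and Aldh1a3 are lower and Dhrs3 and Aldh1a1 higher in all 6, and Crabp2 is lower in 4 and higher in the siRNA pair.

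The Mef2c isoforms were set against each other to ask whether these genes differ between them. Aldh1a2 was 1.5 higher on GT/M2 than on GT/M1, the only one of the 9 at least 2-fold higher there, against 1.9% of named genes. None of the 9 was at least 2-fold lower, against 1.39%. Between GT/M6 and GT/M1, 0 of the 9 genes were 2-fold apart, against 0.646% of named genes higher and 0.292% lower. Crabp1 was 1.09 higher on GT/M6 there, but below the median of named genes on both arrays. Between GT/M6 and GT/M2, Aldh1a2 was at -1.02 and was the only gene lower, against 1.71% of named genes. None was higher, against 1.85%. The Aldh1a2 difference was under 2-fold with quantile normalization at -0.98 and level-dependent centring at -0.95. Crabp1 differed by 1.84 between GT/M6 and GT/M2, again below that median on both. No difference of the 9 genes between these arrays was beyond the 95th percentile of the negative-control differences. That percentile was 2.66 for GT/M2 and GT/M1, 2.45 for GT/M6 and GT/M1, and 2.61 for GT/M6 and GT/M2. Aldh1a2 was near background on GT/M1 and GT/M6.

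GT/M2TAD was set against GT/M2 to ask how the same isoform differed with the MyoD domain. Dhrs3 was at -2.52, Aldh1a2 at -1.97 and Aldh1a1 at -1.18, and these 3 of the 9 genes were at least 2-fold lower, against 3.33% of named genes. None was higher, against 2.96%. Rarb, Stra6 and Aldh1a3 were at -0.93, -0.83 and -0.61, and Crabp1, Crabp2 and Cyp26b1 at 0.24, 0.43 and 0.51. Against the mean of the arrays of the 3 plain isoforms, Dhrs3 was at -2.31, Aldh1a1 at -1.19 and Aldh1a2 at -1.13, and Stra6 passed 2-fold as well, at -1.31. Signals of Aldh1a1 were near background on both arrays, and those of Aldh1a2 with GT/M2TAD. None of these differences was beyond the 95th percentile of the negative-control differences for GT/M2TAD and GT/M2, which was 2.58.

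siEp300 was set against siCtrl to ask which genes differ with siRNA for Ep300. Ep300 itself was 9.47 on siEp300 and 9.90 on siCtrl, under 2-fold apart, and p300 protein is not measured by the array. The comparison therefore cannot tell how these genes respond to a strong loss of p300. None of the 9 was 2-fold apart, against 1.93% of named genes higher and 0.39% lower. The largest difference was 0.64, for Aldh1a1, followed by 0.43 for Crabp2 and 0.33 for Dhrs3. Crabp1 was at -0.063 and Aldh1a2 at 0.0019. The median of all named genes was itself 0.14 higher on siEp300, and at -0.023 after median centring. The shares of named genes higher and lower then became 0.9997% and 0.723%, and with quantile normalization 0.825% and 0.861%, with still none of the 9 genes 2-fold apart.

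The siRNA pair was also set against GT/M2TAD and GT/M2. Against GT/M2TAD, siCtrl was 2.68 higher for Crabp1, 2.48 for Crabp2 and 1.4 for Dhrs3, so 3 of the 9 genes were higher, against 3.04% of named genes, and 0 lower, against 6.38%. These counts held for the 9 genes after median centring and quantile normalization. The shares of named genes higher and lower were then 4.14% and 4.23%, and 4.17% and 3.89%. None of the 9 differences was beyond the 95th percentile of the negative-control differences for siCtrl and GT/M2TAD, which was 3.6. Crabp1 was near background on all transduced arrays, and Crabp2 on all of them except siEp300. On siEp300, 4 were higher than on GT/M2TAD, against 3.53% of named genes: Crabp2 at 2.91, Crabp1 at 2.62, Dhrs3 at 1.73 and Aldh1a1 at 1.06. None was lower, against 3.66%. With GT/M2 in its place, since the labels name both, Crabp2 was 3.34 and Crabp1 2.85 higher, against 6.08% of named genes higher. Aldh1a2 was then at -1.79 and Stra6 at -1.01, against 7.31% lower. Crabp1 and Crabp2 were thus higher on both siRNA arrays whichever array was the comparator, while Dhrs3 was higher against GT/M2TAD and at -0.79 and -1.12 against GT/M2 on siEp300 and siCtrl. Tbx5 was 14.83 and 14.82 on the siRNA pair and 16.14 to 16.23 on the arrays without siRNA. The median of the fibroblast markers was higher on the pair, as given above. Not every marker of that list was, as Thy1 was 15.15 on GT/M2TAD and 12.89 and 12.62 on siCtrl and siEp300. The part of Tbx5 and of these markers in the differences was not tested.

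A wider list of 71 genes of the same pathway was written down with the earlier results known, and 62 were measured. At least 2-fold apart from MEF on 3 or more of the 6 transduced arrays were 11 higher and 11 lower, each 17.7% of the list, against 13.5% and 9.77% of named genes. On single arrays, 7 to 11 were higher, or 11.3% to 17.7% of the list, against 10.9% to 14% of named genes. On the same arrays 8 to 11 were lower, or 12.9% to 17.7%, against 8.34% to 10.9%. That balance depended on the scaling: after median centring, higher and lower genes were 8 and 9 for GT/M1 (10 and 9 as deposited), 8 and 11 for GT/M2 (10 and 8), 7 and 11 for GT/M6 (9 and 8), 8 and 12 for GT/M2TAD (11 and 11), 7 and 9 on siCtrl (the same as deposited) and 7 and 11 on siEp300 (11 and 10). The list's median difference from MEF lay between -0.026 and 0.24. MEF stood at least 2-fold below all 6 transduced arrays for 4 of the 62 genes, against 6.28% of named genes. It stood at least 2-fold above all 6 for 3, against 4.74%.

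Among genes of retinol uptake and storage (11 measured), Lpl, the lipase that also releases retinyl esters from lipoproteins, was 10.44 with GT/M1, 10.5 with GT/M2, 9.84 with GT/M6 and 10.09 with GT/M2TAD. On MEF, siCtrl and siEp300 it was 8.30, 8.28 and 8.22, near background. The endocytic receptor Lrp2 was lower than on MEF, at 7.26, on the arrays without siRNA, at 4.17 to 5.73. It was 6.97 on siCtrl and 7.90 on siEp300, and near background on every array.

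Of 18 measured retinol and retinal enzymes, 4 were higher on 3 or more arrays and 2 lower, where 13.5% and 9.77% of named genes were. Rdh10, which oxidises retinol to retinal in the embryo, was 5.54 on MEF, 5.92 with GT/M1, 6.88 with GT/M2, 5.94 with GT/M6 and 7.60 with GT/M2TAD, and 7.77 and 8.54 on siCtrl and siEp300. It was lowest on MEF, as Dhrs3 was, but of the arrays without siRNA it was highest on GT/M2TAD, where Dhrs3 was lowest. The alcohol dehydrogenase Adh7 was 7.32 on MEF, 9.74 with GT/M1, 10.94 with GT/M2, 9.66 with GT/M6, 8.94 with GT/M2TAD, 6.82 on siCtrl and 7.73 on siEp300. Like Aldh1a2, it was highest on GT/M2, 1.20 above GT/M1, and at -2.00 with GT/M2TAD against GT/M2. Rdh14 and Dhrs4 were the other higher genes, and Rdh13 and Dhrs9 the lower ones. Rdh10 was near background on all arrays except siEp300, and Rdh14 and Dhrs9 on every array. Adh7 was near background on MEF, GT/M2TAD, siCtrl and siEp300. Its differences of 1.20 and -2.00 were inside the 95th percentile of the negative-control differences, which was 2.66 and 2.58 for those comparisons.

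Of the carriers and breakdown enzymes, Fabp5, a fatty acid binding protein that also binds retinoic acid, was lower on all 6 transduced arrays. Its signal was 10.85 on MEF, 7.67 with GT/M1, 8.83 with GT/M2, 7.75 with GT/M6, 6.06 with GT/M2TAD, 5.71 on siCtrl and 6.06 on siEp300. As with Crabp1, MEF stood highest, and here GT/M2 came next. Cyp26a1 and Cyp26c1 were between 2.24 and 3.40 on all arrays.

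Among the receptors, Rara was 10.85 on MEF and 9.29 to 10.00 on the transduced arrays, and Rarg was 10.22 and 8.51 to 9.56. Both were above the negative-control percentile on every array. MEF was the highest array for both, but neither was at least 2-fold above all 6 transduced arrays, as 4.74% of named genes were. Rara was at least 2-fold lower on 5 of 6 arrays and Rarg on 3. Rxra was near background and higher, 7.16 on MEF and 7.81 to 8.60 on the others, while Rxrb (6.02 to 7.14) and Rxrg (3.0 to 3.67) were 2-fold apart from MEF on none. The coactivators Ncoa1 and Ncoa2 were 6.24 and 8.21 on MEF and 8.94 to 9.28 and 9.31 to 10.16 on the transduced arrays. MEF was at least 2-fold below all 6 for both, as for 6.28% of named genes. Both were near background on MEF, and Ncoa1 on GT/M1 as well. None of their differences from MEF was beyond the 95th percentile of the negative-control differences.

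Of 21 measured genes known as targets of retinoic acid, 3 were higher on 3 or more arrays and 5 lower. Of all named genes, 13.5% were higher and 9.77% lower by that rule. Higher were Btg2, at 11.06 on MEF and 13.26 to 14.33 elsewhere, Tcea3, at 4.15 and 8.97 to 10.42, and Gprc5a, at 12.12 and 13.16 to 13.84 on the arrays without siRNA. Lower were Nr2f2, the orphan receptor COUP-TFII, at 11.94 and 8.53 to 9.87, and the homeobox factor Meis2, at 12.25 and 10.68 to 11.25. Meis1, at 9.97 on MEF, was lower only on GT/M2TAD, siCtrl and siEp300, at 8.85, 8.31 and 8.82. With the plain isoforms Meis1 was 9.83 to 9.94. Tnfaip2 and the transglutaminase Tgm2 were lower only on the arrays without siRNA. Tnfaip2 was near background on every array, at 7.94 on MEF and 4.87 to 5.54 on the arrays without siRNA. Tgm2 was 7.59 on MEF, 4.92 with GT/M1, 5.84 with GT/M2, 5.18 with GT/M6, 6.36 with GT/M2TAD, 9.73 on siCtrl and 9.75 on siEp300. As with Crabp2, MEF lay between the lower arrays without siRNA and the higher siRNA pair. Tgm2 was near background on MEF and on the arrays without siRNA.

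**Figure D3:**
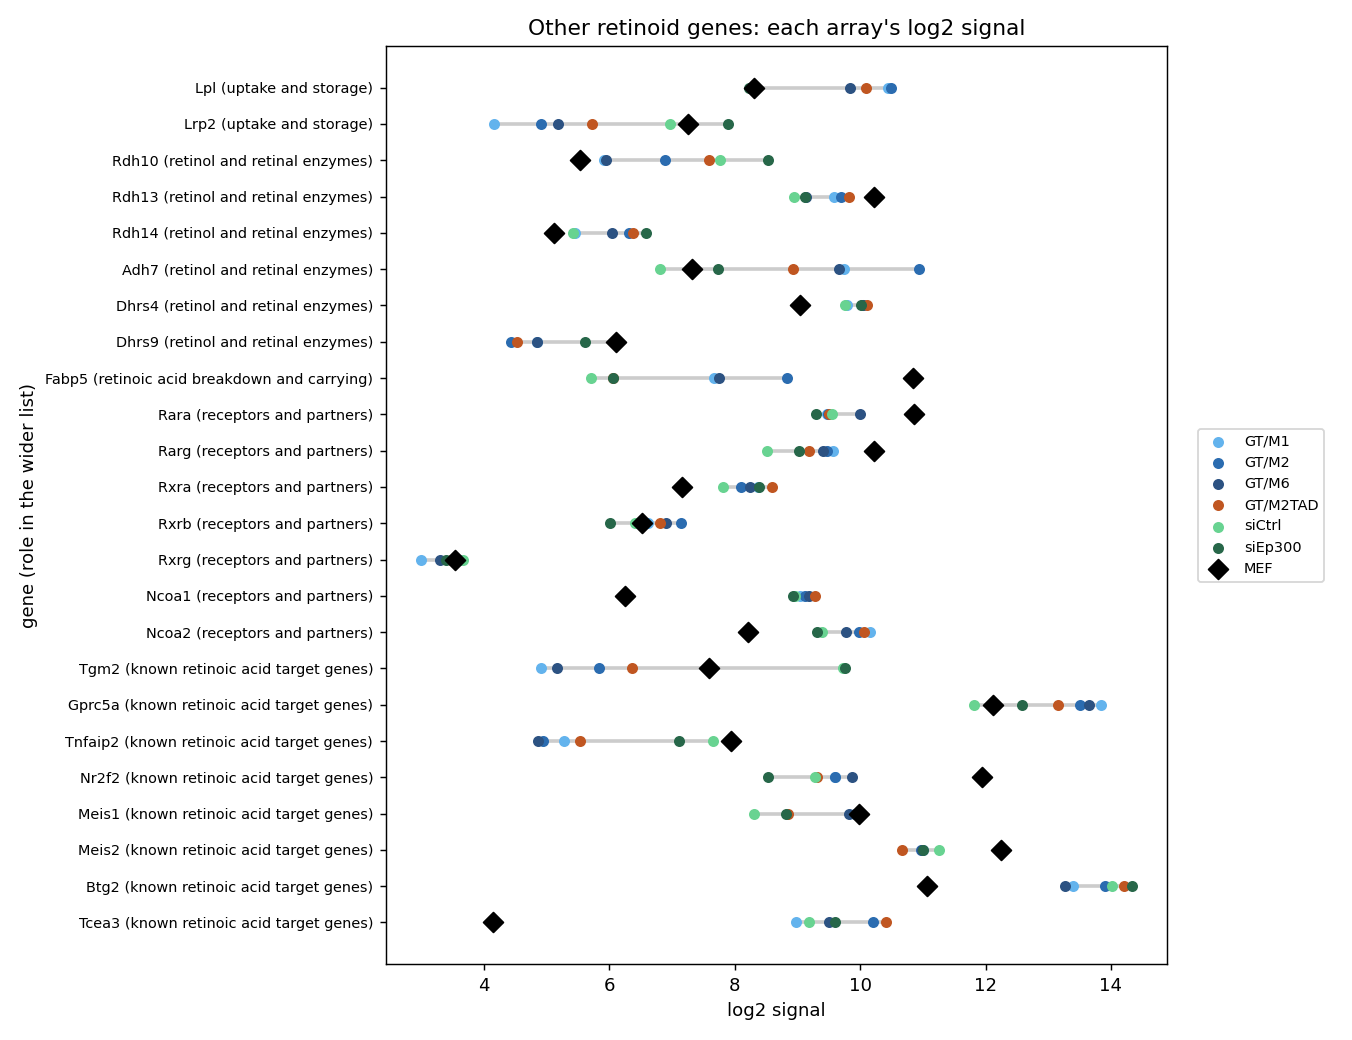
Log2 signal (x axis) on each array of the genes of the wider retinoid list that were at least 2-fold apart from MEF on 3 or more of 6 arrays, and of Rxrb and Rxrg, each named with its role (y axis). Diamonds are MEF and circles the 6 transduced arrays. Fabp5, Rara, Rarg and Nr2f2 have MEF to the right of every circle, Rara and Rarg by less than 2-fold. Tcea3, Ncoa1 and Btg2 have MEF to the left of every circle.

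Between transduced arrays, 1 to 10 of the 62 genes of the wider list were 2-fold apart. On GT/M2 against GT/M1, 3 were higher (Adh7, Fabp5 and Tcea3) and 0 lower, or 4.84% and 0% of the list against 1.9% and 1.39% of named genes. On GT/M2TAD against GT/M2, 3 were lower, Fabp5 at -2.78, Adh7 at -2.00 and Meis1 at -1.06, and 0 were higher, or 4.84% and 0% against 3.33% and 2.96% of named genes. On GT/M6 against GT/M1 only Zbtb16 was, at -1.01, or 1.61% lower against 0.292% of named genes. On GT/M6 against GT/M2 only Adh7 at -1.27 and Fabp5 at -1.09 were, or 3.23% lower against 1.71%. On siEp300 against siCtrl, Rdh14 and Hoxa4 were 1.16 and 1.04 higher (3.23% of the list against 1.93% of named genes), near background, and neither was 2-fold apart after median centring or quantile normalization. On siCtrl against GT/M2TAD, 5 were higher and 5 lower, 8.06% each against 3.04% and 6.38% of named genes, with Tgm2 3.36 higher and Adh7 at -2.12.

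For 4 of the 9 genes, the genes with the most similar profile were named. The measure was the root mean square distance of the 7 signals after each gene's own mean was taken off, over all other named genes. The nearest to Crabp1 were Adam12, a metalloprotease, at a distance of 0.52 log2 units, the protease Tll1 at 0.53 and the hyaluronan synthase Has2 at 0.56, where the median gene was at 2.80. Each of these was high on MEF, at 12.89, 13.85 and 11.81, and at most 8.62 on any other array. The nearest to Crabp2 were Ccn5 at 0.19, Nt5dc3 at 0.22 and Man2a1, a Golgi mannosidase, at 0.25, all highest on the siRNA pair. The nearest to Dhrs3 were Podn, a small leucine-rich proteoglycan, at 0.45, the protease inhibitor Spint2 at 0.47 and Samd12 at 0.53. Podn was 7.33 on MEF and 11.09 with GT/M2TAD, its lowest transduced array, as for Dhrs3. The nearest to Aldh1a2 were Pkhd1l1 at 0.18, Arhgef16 at 0.21 and Prss12 at 0.30, whose signals of 3.21 to 7.11 were near background on all arrays. These genes were picked for their likeness out of all named genes over 7 arrays, so the likeness is a description.

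**Figure D4:**
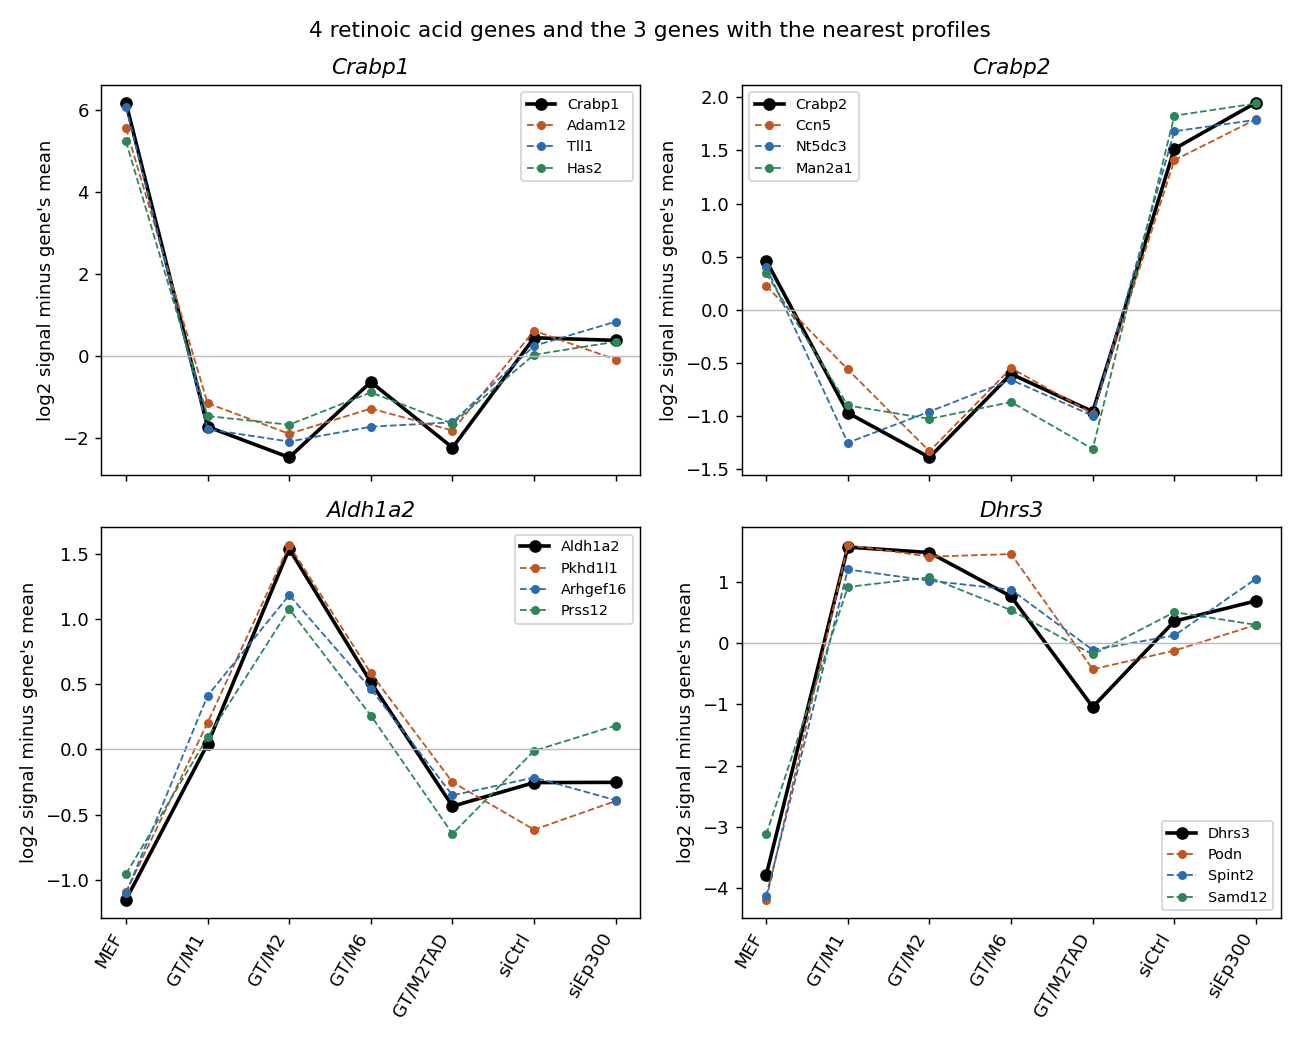
Log2 signal minus the gene's own mean over 7 arrays (y axis) on each array (x axis) for Crabp1, Crabp2, Aldh1a2 and Dhrs3 (black) and for the 3 genes nearest to each by root mean square distance (coloured, dashed); lines only join points of a gene. Crabp1 and its 3 neighbours peak on MEF, Crabp2 and its neighbours on the siRNA pair, Aldh1a2 and its neighbours on GT/M2, and Dhrs3 and its neighbours are lowest on MEF.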

How the data were processed

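RNA from 7 fibroblast cultures was hybridised to 7 Clariom S mouse arrays, 1 per group. The deposited values were log2 signals, made by the authors with the SST-RMA method per the labels and series text, in Affymetrix Expression Console 1.4 per the submitters' processing notes. No settings of it are known here. Such normalization brings arrays to a common scale, so a shift of most genes could be lost. Signals near background can understate a difference, and can also give one where no gene is measured, as among the negative-control probes above. Of 28846 probe sets, 19572 had 1 symbol in the platform annotation, 0 had several, and 9274 had none and entered no gene count. For the 55 genes with several sets, the set with the highest mean was used, and none of the 9 genes was among them.

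From these values, log2 differences between arrays, counts by the size rule and profile distances were computed in Python 3.11.15 with pandas 2.3.3. The calculations were checked on simulated data with known answers. With 1 array per group no test was possible. Named were the 9 genes, genes of the wider list 2-fold apart (from MEF on 3 or more arrays) with the retinoid receptors, and the 3 nearest profiles for genes with a range of at least 2 whose highest signal passed the negative-control percentile. The genes and lists were chosen with earlier results of these data known. Alternatives were quantile normalization over named genes, median centring, level-dependent centring (running median over 501 genes), other floors, log2 differences of at least 0.6 or 1.5, other comparator arrays, and MEF against the arrays without siRNA, which was chosen after seeing the data. RefSeq promoter windows of GRCm38.p6 were used for sequence only.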

Additional observations from a re-analysis of the deposited data

Results flagged for a closer look

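Crabp2 differed from MEF in opposite directions on the arrays without and with siRNA. It was at -1.43 with GT/M1, -1.85 with GT/M2, -1.07 with GT/M6 and -1.42 with GT/M2TAD, and 1.05 and 1.49 higher on siCtrl and siEp300. None of these 6 differences was beyond the 95th percentile of the negative-control differences, which was 2.92 to 3.28. Only the siEp300 signal was not near background. The difference between these groups of arrays was not tested, and all 6 values share the MEF array.

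Tgm2, on the wider list, had the same pattern. It was at -2.67 with GT/M1, -1.74 with GT/M2, -2.41 with GT/M6 and -1.22 with GT/M2TAD, and 2.14 and 2.16 higher on siCtrl and siEp300. None of these 6 differences was beyond the 95th percentile of the negative-control differences, which was 2.92 to 3.28. Only the signals of Tgm2 on siCtrl and siEp300 were not near background. The difference of Tgm2 between these groups of arrays was not tested either.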

How the results depend on the processing

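Of 324 single differences of the 9 genes recomputed under 3 other normalizations, 318 kept their call or lack of one and 6 lost it. No called difference changed direction. Some differences under 2-fold changed sign, such as Rarb on GT/M6 against MEF, from 0.21 to -0.15 with quantile normalization. With a floor at the 95th percentile of negative controls, counts against MEF were lower, except that of higher genes on siEp300, which stayed at 3. It left 1, 2, 1, 1 and 1 genes higher on GT/M1, GT/M2, GT/M6, GT/M2TAD and siCtrl, and 1 lower on each of the 6 arrays. It left 1 higher on siCtrl than on GT/M2TAD, and 2 apart from all 6 transduced arrays. Of the wider list it left 10 genes 2-fold apart on GT/M1 and 13 on GT/M2TAD against MEF, 0 on GT/M6 against GT/M1, 0 on siEp300 against siCtrl and 5 on siCtrl against GT/M2TAD. At a log2 difference of 1.5, the Aldh1a2 calls of GT/M2 against GT/M1 and of GT/M6 against GT/M2 were lost (0 left). The wider list then had 12, 13, 9 and 8 genes apart on GT/M1, GT/M2TAD, siCtrl and siEp300 against MEF, 0 between the isoform arrays and between the siRNA pair, and 6 on siCtrl against GT/M2TAD. At 0.6, higher genes were 4 on GT/M2TAD and 5 on siEp300 against MEF, 2 on GT/M6 against GT/M2 and 1 on siEp300 against siCtrl. Lower genes were 1 on GT/M2 and 1 on GT/M6 against GT/M1, 3 on GT/M6 and 5 on GT/M2TAD against GT/M2. The wider list had 10 on GT/M2 and 2 on GT/M6 against GT/M1, 8 on GT/M6 and 8 on GT/M2TAD against GT/M2, 8 on siEp300 against siCtrl and 19 on siCtrl against GT/M2TAD. With no floor, Crabp1 added 1 on GT/M6 against GT/M1 and 1 against GT/M2, and the wider list had 2 on GT/M6 against GT/M1. Quantile normalization and level-dependent centring left 0 genes lower on GT/M6 than on GT/M2. On siEp300 against siCtrl the wider list had 0 with median centring, 0 with quantile normalization and 1 with level-dependent centring, which left 1 on GT/M6 against GT/M2. With GT/M2TAD in place of siCtrl, 4 genes were higher on siEp300. With GT/M2, 2 were higher and 2 lower. None of the 9 genes had several probe sets, so the mean of sets was not run, and level-dependent centring was not run for MEF against all arrays. No paired analysis was possible because each group had 1 array. Signal over background limits all values near it.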
